A study of Homo sapiens with 4 samples.

Results

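U2 small nuclear RNA (snRNA) genes in and near CCDC200 on chromosome 17, together with intronic sites in CREBBP, YJU2 and PPP5C, were examined in the FSCN1 iRIP-seq peak lists. They were chosen by where the peaks of the lists lay, that is, on chr17:43230000-43260000 or in 1 of the other 3 genes, on either strand. They held 18 of the 419 listed peaks, 6 of 181 in IP replicate 1 and 12 of 238 in IP replicate 2, at 8 of 262 positions. A position is a region in which peaks of either strand and either replicate overlap. Since the peaks themselves chose the members, their numbers and tags are given as a description, without a test.

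In the study, RNA in A549 cells, an established human lung adenocarcinoma line, was crosslinked to protein with ultraviolet light, and RNA bound to FSCN1 (fascin, an actin-bundling protein) was immunoprecipitated (IP) and sequenced. Of 4 samples, 2 were IP samples and 2 were inputs, taken before precipitation; only the IP peak lists were analysed here, so no enrichment over input could be computed. All samples came from A549 cells, with no other treatment in the labels, and the label of 1 input adds the word plasmid. The precipitating antibody is given as anti-FSCN1 in the text of the study, but its blot of the precipitates and the labels name anti-FLAG, and the labels also name a control IgG antibody that none of the 4 samples is labelled with. The labels also give the molecule as polyadenylated RNA, while mature U2 carries no poly(A) tail. The study calls the IP samples biological replicates, while the labels do not say whether they came from separate cultures.

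U2 snRNA is the RNA core of the U2 snRNP, the particle of the spliceosome that recognises the branch site of an intron. The RNA pairs with the branch site through a short sequence near its 5′ end, carries a ring of Sm proteins on its Sm site, and folds its 3′ part into stem-loops that bind SNRPA1 and SNRPB2. In humans U2 is transcribed from a tandem array of near-identical genes, and many truncated copies are scattered through the genome.

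The lists measure each peak in tags, the number of reads per bin of 50 bp, without scaling to library size. The peaks in replicate 1 ranged from 7 to 151 tags with a median of 9, and those in replicate 2 from 6 to 170 with a median of 8. The listed tags added up to 2677 in replicate 1 and 4024 in replicate 2, which is not the depth of the libraries. The intervals given with tags are exact Poisson 95% intervals and cover counting error only. Coordinates are on GRCh38 and start at 1.

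The RNU2-1 gene (ENSG00000274585.1, chr17:43233787-43233977, minus strand) is shown 5′ to 3′ along the RNA, because all 6 peaks of the chromosome 17 segment lay on the same part of it. The capitals mark bases 128 to 164, the part covered by the peaks of all 4 copies that had one.
RNU2-1: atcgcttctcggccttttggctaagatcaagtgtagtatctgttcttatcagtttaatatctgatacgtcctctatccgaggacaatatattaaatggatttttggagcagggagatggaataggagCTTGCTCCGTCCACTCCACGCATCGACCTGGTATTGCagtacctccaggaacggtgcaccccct

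Of the 4 intronic sites, the 3 with the longest repeats are shown on the plus strand, because their sequence differed in kind from U2. The capitals mark uninterrupted runs of alternating CA or GT of at least 12 bases. The sites lie at chr16:3814201-3814250 (CREBBP site A), chr16:3849351-3849400 (CREBBP site B), chr19:4247551-4247600 (YJU2) and chr19:46389351-46389400 (PPP5C), and each sequence starts 25 bp before the peak.
CREBBP site B, chr16:3849326-3849514: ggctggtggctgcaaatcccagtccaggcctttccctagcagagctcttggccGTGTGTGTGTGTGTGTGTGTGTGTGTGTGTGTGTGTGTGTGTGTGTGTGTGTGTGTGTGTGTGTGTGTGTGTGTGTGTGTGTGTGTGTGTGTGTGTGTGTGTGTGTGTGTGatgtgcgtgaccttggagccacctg
YJU2, chr19:4247526-4247723: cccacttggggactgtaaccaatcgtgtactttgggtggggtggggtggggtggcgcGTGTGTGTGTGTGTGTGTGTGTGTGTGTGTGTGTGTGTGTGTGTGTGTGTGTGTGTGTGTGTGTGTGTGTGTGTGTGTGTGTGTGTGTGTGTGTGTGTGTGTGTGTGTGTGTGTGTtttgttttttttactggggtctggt
PPP5C, chr19:46389326-46389486: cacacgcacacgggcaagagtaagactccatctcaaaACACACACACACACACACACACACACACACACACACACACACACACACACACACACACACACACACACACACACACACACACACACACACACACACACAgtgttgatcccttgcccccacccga

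The intronic sites had been picked as sequences that resemble U2, but their sequence went against that description, and they are called intronic repeat sites here. Over 250 bases around each site, blastn found 0 alignments to RNU2-1, and the longest exact match on either strand was 8 bases at CREBBP site A and PPP5C and 7 bases at CREBBP site B and YJU2. Among the 90 annotated U2 genes and pseudogenes, only the pseudogene RNU2-58P (ENSG00000252212.1, chr17:59129276-59129458, annotated on the minus strand) contained a CA or GT run of at least 12 bases. This run was 38 bases long. In this pseudogene, the part that aligned with U2 (bases 5 to 57 of U2 at 96.2% identity) lay beside the run, not in it. The 4 intronic sites aligned to RNU2-58P over 47 to 76 bp at 88.2 to 97.9% identity. Each of these alignments covered all 38 bases of the run and 0 bases of the part that matched U2. RNU2-58P itself had 0 peaks.

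**Figure D1:**
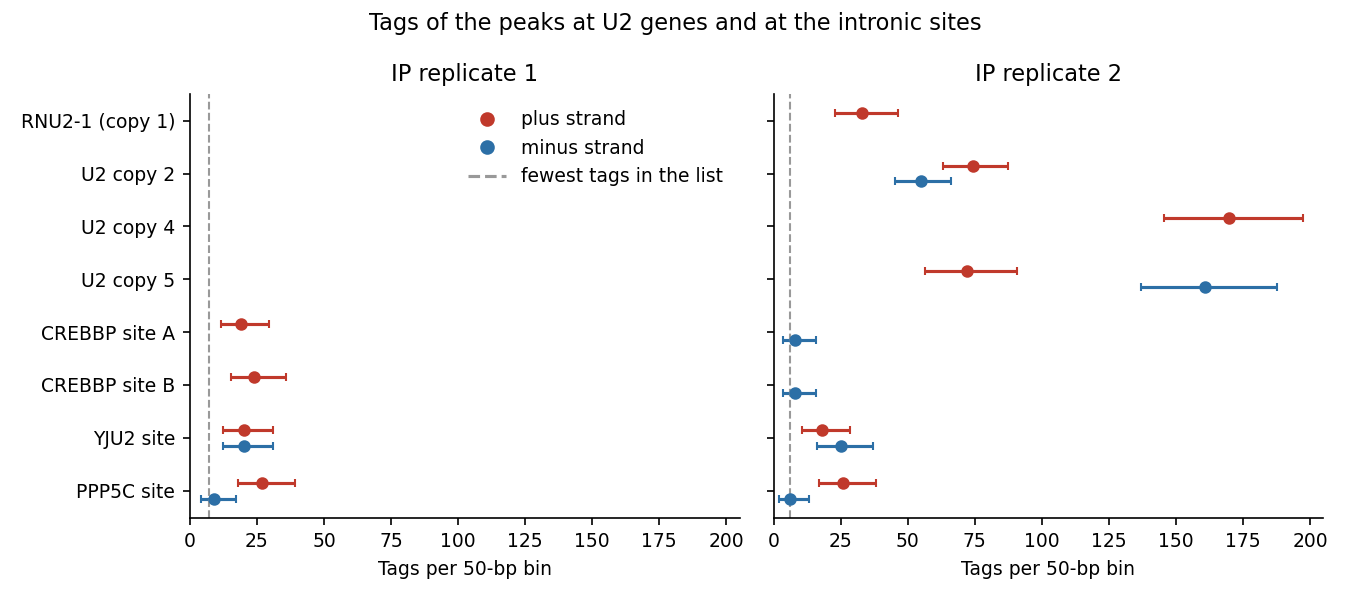
Tags per 50-bp bin (x axis, linear) of all 18 peaks in IP replicate 1 (left) and IP replicate 2 (right), by position (y axis) and strand (colour). Points are the listed tags, bars are exact Poisson 95% intervals, and the dashed line is the lowest value of each list, 7 and 6 tags. The U2 copies had peaks only in replicate 2, from 33 to 170 tags, and the intronic repeat sites had peaks in both.

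The U2 genes had no peak in replicate 1 and 6 peaks in replicate 2, on 4 copies of the array, which are numbered here by their coordinate. RNU2-1, copy 1 and the copy that carries the gene symbol, had 33 tags (interval 22.7 to 46.3) at chr17:43233801-43233850 on the plus strand, opposite to the gene. Copy 2 (ENSG00000275616.1, chr17:43239921-43240111) had a peak of 2 bins at chr17:43239901-43240000, with 74.5 tags per bin (interval 63.0 to 87.5) on the plus strand and 55 (interval 45.2 to 66.3) on the minus strand, the strand of U2. Copy 4 (ENSG00000274432.1, chr17:43245674-43245864) had 170 tags (interval 145 to 198) at chr17:43245701-43245750 on the plus strand, and no peak on the strand of U2.

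Copy 5 (ENSG00000278048.1, chr17:43251829-43252019) had 161 tags (interval 137 to 188) at chr17:43251851-43251900 on the strand of U2 and 72 tags (interval 56.3 to 90.7) opposite to it. The peak of 170 tags was the tallest of the 238 peaks in replicate 2, and that of 161 tags ranked 3. As listed, the plus strand had more tags at RNU2-1 and copies 2 and 4, and the minus strand at copy 5. These copies are identical over the gene, so its sequence alone cannot credit the tags to single copies. The study does not say how the strand of a read pair was set. The intervals of the strands did not overlap at copy 5 and overlapped at copy 2. Summed over the copies, the plus strand had 349.5 tags and the minus strand 216. Copy 3 (ENSG00000273709.1, chr17:43241180-43241370) had no peak.

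In replicate 2, the 6 U2 peaks made up 14.1% of all listed tags, and all 6 were above the list median. In replicate 1, no peak lay on chromosome 17 between 40443500 (a peak of 8 tags in IGFBP4) and 50658601 (9 tags in ABCC3). Its lowest listed value was 7 tags, so a lower signal at U2 would not be seen. The study also describes its IP peaks as called against the input and screened by their abundance over it. Whether the lists used here are those peaks is not stated, and the part of the input in the absence of U2 peaks from replicate 1 was not tested. In replicate 2, the nearest peaks outside the segment had 6 tags each, 1328 kb below it in ACLY and 1855 kb above it in PLCD3. The U2 peaks thus rested on 1 replicate, and no spread between replicates could be given for their tags.

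**Figure D2:**
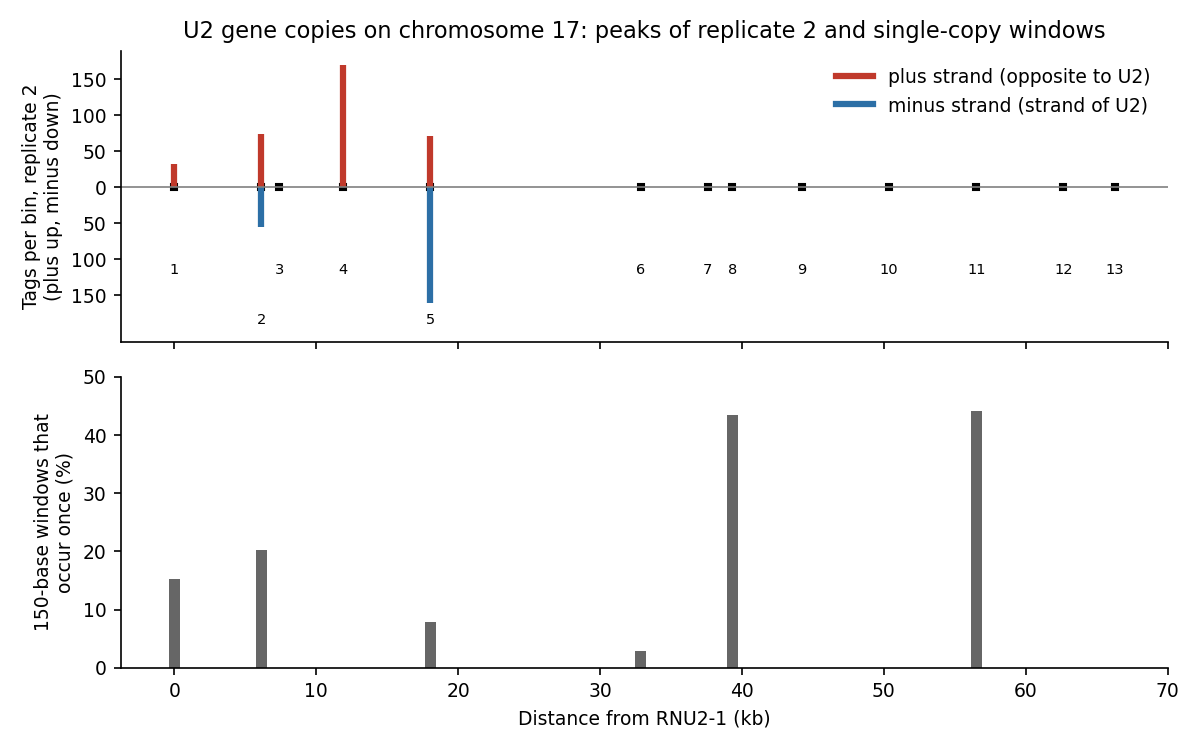
The 13 annotated U2 copies of the array by distance from RNU2-1 (x axis, kb). The upper panel gives the tags per bin of replicate 2, with plus-strand tags drawn upward and minus-strand tags downward, and the lower panel gives the share of 150-base windows touching each copy that occur once in the genome. Copies 1, 2, 4 and 5 carried peaks, and copies 8 and 11 had the largest shares of single-copy windows, 43.4% and 44.1%.

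The array held 13 annotated copies, all on the minus strand, the strand of CCDC200 (ENSG00000236383.9, chr17:43216941-43305397), a gene that encodes a coiled-coil protein. In the lists, the minus-strand peaks were assigned to an intron of CCDC200 and the plus-strand peaks to the U2 genes as antisense. None of the peaks lay within the canonical CCDC200 transcript of GENCODE 44. Of the 13 copies, 11 were identical to RNU2-1 over all 191 bases, RNU2-1 included, and so were all 5 in the segment. The other 8 copies, which lay 32.8 to 66.3 kb from RNU2-1, had no peak in either replicate.

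Reads from identical copies can be told apart only by the bases beside the gene. Of the 340 windows of 150 bases that touched each copy (341 for copy 8), 52 occurred once in the main chromosomes at RNU2-1, 69 at copy 2, 0 at copies 3 and 4, and 27 at copy 5. Around the peaks themselves, 38 of 199 windows at RNU2-1 occurred once, 0 of 249 at copy 2, 0 of 199 at copy 4 and 5 of 199 at copy 5. Copy 4, which had the tallest single peak of the list, therefore had no single-copy window of this length there. According to the methods, only uniquely aligned reads were kept. How read pairs were placed on these copies was not tested.

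All 6 U2 peaks overlapped the 3′ part of the gene, and those of copy 2 also ran past its 3′ end, since they started at 43239901 and the gene, on the minus strand, ends at 43239921. The peak of RNU2-1 covered bases 128 to 177 counted from the 5′ end of the gene, that of copy 2 bases 112 to 191, that of copy 4 bases 115 to 164, and that of copy 5 bases 120 to 169. The branch site recognition sequence GTAGTA, which occurs once in the gene at bases 33 to 38, lay outside all peaks. So did the Sm site, found as ATTTTTG at bases 99 to 105. No peak was listed on the 5′ part of any copy. By the methods, only uniquely aligned reads were kept. Of the windows wholly inside the gene, 0 of 42 occurred once at each of copies 1 to 5. The 52 single-copy windows of RNU2-1 all started at base 140 or later, in its 3′ part. The 69 of copy 2 instead all started before the gene and reached into its 5′ part. The part of read placement in the position of the peaks was not tested.

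**Figure D3:**
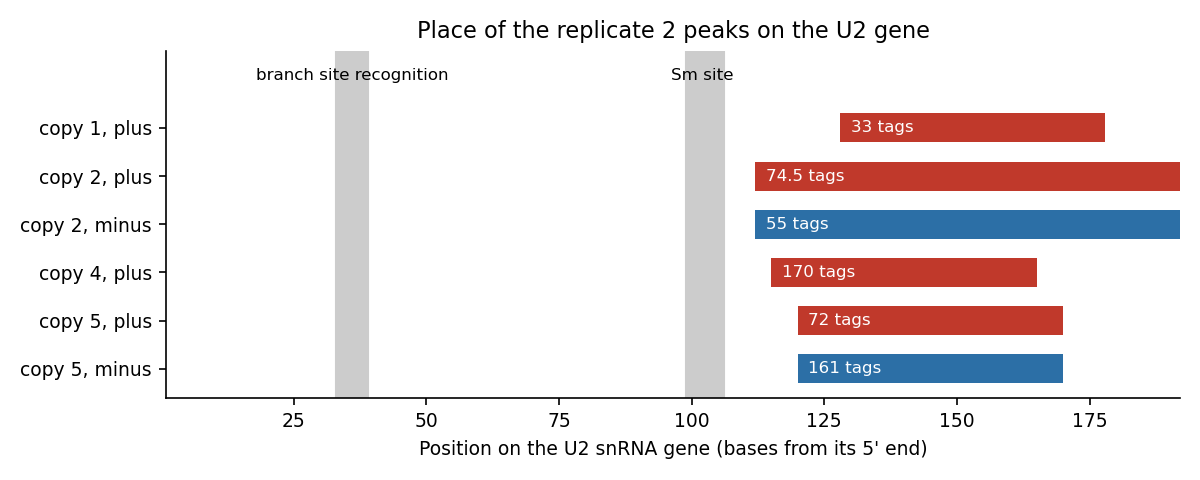
Bins of the 6 replicate 2 peaks (bars, coloured red for the plus and blue for the minus strand) on the U2 gene, in bases from its 5′ end (x axis), with their tags per bin. Grey bands mark the branch site recognition sequence and the Sm site. All bars lie downstream of both, from base 112 on. Those of copy 2 are drawn only as far as the 3′ end of the gene. No window wholly inside the gene occurred once at any of the copies drawn.

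U2-related sequences elsewhere in the genome had no peak. At 85% identity over at least 40 bp, blastn found 163 sequences that align to RNU2-1 in the main chromosomes, of which 13 were the array copies and 150 lay elsewhere. Only 4 of the 163 had a peak, all in the array and all in replicate 2. RNU2-2P on chromosome 11 (chr11:62841619-62841809) matched RNU2-1 at 97.3% identity over 186 bp. All 340 of its windows occurred once, and no peak was listed there. RNU2-59P on chromosome 10 matched at 96.2% over 186 bp and had none either. Peaks were rare in genes of this size in general: of 5243 other annotated short noncoding RNA genes (miRNA, snoRNA, scaRNA, other snRNA and miscellaneous RNA), 11 (0.21%) overlapped a peak.

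Among the other spliceosomal snRNAs, 1 of 1650 annotated genes and pseudogenes had a peak, to be read beside the 0.21% of other short noncoding RNA genes; the difference was not tested. It was RNVU1-18, a U1 variant gene on the minus strand of chromosome 1, with 9 tags (interval 4.12 to 17.1) on its own strand at chr1:143729401-143729450 in replicate 2 and no peak in replicate 1. U4, U5, U6 and the RNAs of the minor spliceosome had 0 peaks. Of 31 genes for proteins of the U2 snRNP and of branch site recognition, such as SF3B1, SNRPA1 and U2AF2, 0 had a peak. Of a list of 8 splicing factors around YJU2, only YJU2 had a peak, at its intronic repeat. YJU2 was itself among the genes chosen by their peaks. Over all 20046 protein-coding genes, 92 (0.459%) overlapped a peak, so that lists of this size would seldom hold one and nothing can be read from these counts. RN7SK, RN7SL1, RN7SL2, RN7SL3 and RNU7-1 had none.

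At the intronic repeat sites the lists held 6 peaks in each replicate, from 9 to 27 tags in replicate 1 (median 20) and from 6 to 26 in replicate 2 (median 13). They made up 4.44% and 2.26% of the listed tags. In replicate 2 their tags did not overlap those of the U2 genes, whose lowest value was 33. Of the 18 peaks, the largest p-value from the authors' peak caller was 6.29e-06, at PPP5C on the minus strand in replicate 2.

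YJU2 (ENSG00000105248.16), a splicing factor that acts in the first step of splicing, had a peak on each strand in both replicates at chr19:4247551-4247600. The position lies in the first intron of the canonical transcript, 471 bp from its start and 380 bp from the 5′ splice site. The plus strand, which is the strand of the gene, had 20 tags (interval 12.2 to 30.9) and 18 tags (interval 10.7 to 28.4) in replicates 1 and 2. The minus strand had 20 tags and 25 tags, with intervals of 12.2 to 30.9 and 16.2 to 36.9. The intervals of both strands and both replicates overlapped.

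PPP5C (ENSG00000011485.15), which encodes a serine/threonine phosphatase, also had a peak on each strand in both replicates, at chr19:46389351-46389400 in intron 11 of the 13-exon canonical transcript, 619 bp from its 5′ and 650 bp from its 3′ splice site. The plus strand, that of the gene, had 27 tags (interval 17.8 to 39.3) and 26 tags (interval 17 to 38.1) in replicates 1 and 2. The minus strand had 9 tags (interval 4.12 to 17.1) and 6 tags (interval 2.20 to 13.1). The gene strand was therefore higher in both replicates, without overlap of the intervals within a replicate, and for each strand the intervals of the replicates overlapped.

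CREBBP (ENSG00000005339.15), a histone acetyltransferase and coactivator gene on the minus strand, had both of its positions in intron 2, which is 39517 bp long. Site A lies 3421 bp before the 3′ splice site, and site B 896 bp after the 5′ splice site. In replicate 1 the peaks were on the plus strand, opposite to the gene, with 19 tags at site A (interval 11.4 to 29.7) and 24 tags at site B (interval 15.4 to 35.7). In replicate 2 they were on the minus strand, that of the gene, with 8 tags at each site (interval 3.45 to 15.8). The strand listed at each CREBBP site thus differed between the replicates. Among all 42 positions with a peak in both replicates, 5 shared no strand between them, these 2 and 3 others.

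All 4 intronic sites had a peak in both replicates, against none of the 4 U2 copies with a peak. Of all 262 positions, 42 (16.0%) had a peak in both. Peaks on both strands within a replicate were listed at 2 of the 4 intronic sites in each replicate and at 2 of the 4 U2 copies in replicate 2. Over all positions, 48 of 133 in replicate 1 (36.1%) and 67 of 171 in replicate 2 (39.2%) had both.

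The peak of each intronic site contained the end of a long repeat with the lower coordinate. The run of alternating GT on the plus strand was 55 bases long at CREBBP site A, 111 at site B and 116 at YJU2, and that of CA at PPP5C was 99. The repeats reached beyond the upper end of the peak at all 4 sites, with 35, 22, 18 and 38 of their bases inside the peak, in the order CREBBP site A, CREBBP site B, YJU2 and PPP5C. Read along the gene, the repeat is CA in CREBBP and PPP5C and GU in YJU2. By repeat strand, YJU2 had 20 and 18 tags on the GT strand and 20 and 25 on the CA strand in replicates 1 and 2, while PPP5C had 9 and 6 on the GT strand and 27 and 26 on the CA strand. At CREBBP, sites A and B had 19 and 24 tags on the GT strand in replicate 1, with no peak on the CA strand, and 8 tags each on the CA strand in replicate 2, with no peak on the GT strand. No repeat strand was thus the higher one at all 4 sites. All 199 windows of 150 bases that touch each of these peaks occurred once in the main chromosomes. The study digested the RNA before precipitation, and shorter windows or matches with mismatches were not counted.

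**Figure D4:**
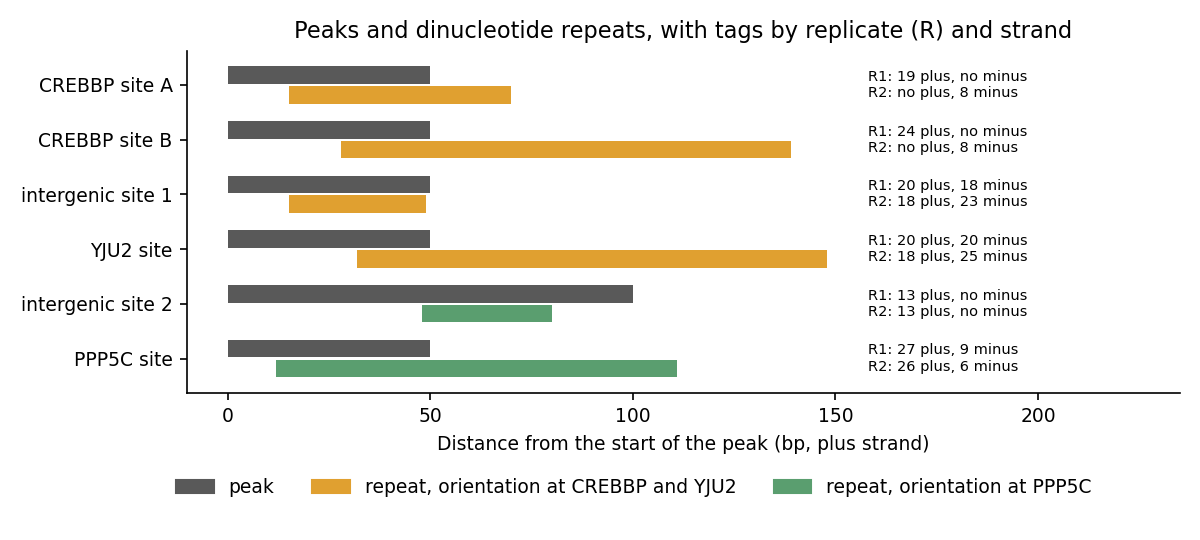
Peaks (grey) and the dinucleotide repeats that they overlap (coloured by orientation) at the 4 intronic sites and at 2 intergenic sites of chromosome 19, in bp from the start of the peak on the plus strand (x axis). The numbers give tags per bin by replicate (R1, R2) and strand, with "no" where no peak was listed; every peak contains the lower end of its repeat.

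Within the host genes, the peaks lay on the longest repeats. CREBBP held 8 uninterrupted CA or GT runs of at least 20 bases. The longest, of 111 and 55 bases, had the peaks, while the longest without a peak had 38. A further GT run of 32 bases lay just below the peak of site A, at chr16:3814165-3814196, and outside it. YJU2 held 2, of 116 bases with peaks and 39 bases without. PPP5C held 1, and CCDC200 held 1 of 20 bases without a peak.

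The main chromosomes held 72679 such runs of at least 20 bases, of which 6 overlapped a peak. Only 12 runs were 80 bases or longer, a length set after the values were seen, and 3 of them had a peak, all in both replicates. By length in the whole genome, the repeats of YJU2, CREBBP site B and PPP5C ranked 3, 4 and 5, and that of CREBBP site A, with 55 bases, was exceeded by 625 others. The longest, of 122 bases on chromosome 2 outside coding genes and of 120 bases in AVPI1, had no peak, and neither had those of 98 bases in DONSON and 96 bases in MAP3K12. The intronic sites and the 2 intergenic sites plotted with them were the only ones of the 262 that overlapped a run of 12 bases or more.

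**Figure D5:**
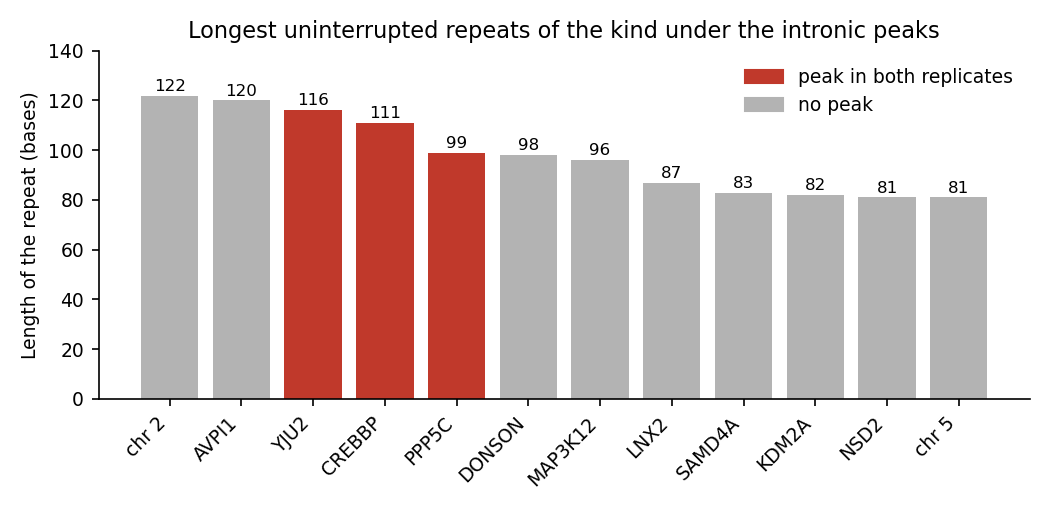
Length in bases (y axis, from 0) of the 12 uninterrupted CA or GT repeats of at least 80 bases in GRCh38, by gene, or by chromosome where they lie in no coding gene. Those with a peak in both IP replicates are red: YJU2 (116 bases), CREBBP site B (111) and PPP5C (99); the other 9 had no peak.

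The other 2 positions with such a repeat were listed as intergenic on chromosome 19. At chr19:4182951-4183000, where GENCODE 44 places ANKRD24, an ankyrin repeat gene, the run was 34 bases long. Its plus strand had 20 and 18 tags in replicates 1 and 2, and its minus strand 18 and 23. At chr19:46296101-46296200, 0.842 kb from HIF3A, the run was 32 bases long, with 13 tags per bin on the plus strand in each replicate and no peak on the minus strand. Both positions, like the intronic sites, were in both replicates, and their runs, unlike those of the intronic sites, ended inside the peak.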

How the data were processed

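Peak lists of the 2 FSCN1 IP samples were used. According to the methods, HISAT2 was the aligner, GRCh38 with Ensembl 104 annotation the reference, only uniquely placed reads without PCR duplicates were used, and ABLIRC as well as Piranha served as peak callers. The authors made 1 list per sample, and which caller gave these lists is not named. The study describes IP peaks called and screened against the input; whether these lists are those peaks is not stated. The deposited signal is the mean number of tags per bin of 50 bp and is not scaled to depth. The deposited p-value is the peak caller's, and the deposited length is the span of the peak in bp plus 1, which was not used. The input samples were not analysed here.

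Members were taken by position. The members and gene lists were chosen with earlier results of these data known. Named genes are the members, the U2 copies of the segment and genes of the fixed lists, some of them without a peak. U2 pseudogenes and genes near other repeats or peaks were added after their values were seen. Annotation was GENCODE 44 on GRCh38. RNU2-1 was aligned to the main chromosomes with blastn 2.17.0 (word size 11, E-value 0.001), and to the intronic sites with word size 7 and E-value 0.05. CA and GT runs were uninterrupted and at least 20 bases long unless stated. Occurrences of 150-base windows were counted exactly on both strands; the counting was tested on simulated data. Python 3.11.15, pysam 0.24.0, numba 0.67.0 and matplotlib 3.10.9 were used. No test was run, as both samples belong to 1 group. The sequences of CREBBP site A and RNU2-58P are not reported here.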

Additional observations from a re-analysis of the deposited data

How the results depend on the processing

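For 10 results, 43 alternatives gave a value, of which 13 moved by more than the limit set for their kind: 1.5 times for counts, the counting interval for the U2 median, and the SD between replicates for the intronic median and the share of tags. Among peaks with more tags than the list median, 2 positions in place of 4 had a peak in both replicates, since the CREBBP sites had 8 tags in replicate 2; with overlap on the same strand the number was also 2. Counted once per position, the intronic sites gave 4 in place of 12 peaks. The median of 73.25 tags at U2 became 129.5 with tags multiplied by bins and 108 on the strand of U2. The share of listed tags, 11.6% over both lists, became 24.9% without the 45S rRNA region of chromosome 21. With 1 replicate left out, the U2 peaks ranged from 0 (without replicate 2) to 6, the intronic peaks were 6 either way, positions with both strands ranged from 2 to 4, and the intronic median from 13 to 20 tags, against 19.5 over both. In the same way, U2-related sequences with a peak ranged from 0 to 4, other snRNA genes with a peak from 0 to 1, and the share of tags from 4.44% (without replicate 2) to 16.3%, a wide range that its SD, taken from these same values, covered. Positions on a repeat numbered 6 under all alternatives except runs of at least 40 bases, which gave 4; these alternatives were chosen after seeing the data. The tags on the strand of a U2-like sequence at the intronic sites could not be computed, as no such sequence was found, and positions in both replicates cannot be counted with 1 replicate left out. No paired analysis was possible because only the IP samples had a peak list here. Depth was unknown, and no peak below 7 and 6 tags was listed.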
